A study of Rattus norvegicus with 60 samples.

Results

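Cytosolic heat shock proteins and their partners were followed in rat brain after lithium chloride or lamotrigine. The 10 genes were Hspa1a, Hspa8, Hspa4l, Hsph1, Hspb1, Hsp90ab1, Dnajb1, Dnaja1, Bag3 and Hspd1, and every array probe set whose annotation gave exactly 1 of these symbols was taken. This gave 13 probe sets for 9 genes, of 14217 genes with such a probe set in the whole table. Hspa8, the constitutive Hsp70, stood only on a probe set shared with another symbol and has no value here. Hsph1, Hsp90ab1, Dnajb1 and Dnaja1 had 2 probe sets each, and the brighter was used for the gene. The name of the group is not exact for 1 member, since Hspd1 encodes Hsp60, the chaperonin of mitochondria.

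The samples came from SD rats treated for 21 days. One arm of the study received LiCl at 0.2% of the chow or plain chow (the chow vehicle), and the other received lamotrigine at 30 mg/kg or its vehicle as a daily subcutaneous injection. Hippocampus, cortex and striatum were profiled, with 5 arrays for each of the 4 treatments in each region (60 arrays, 12 groups). Age and sex are not given in the sources used here, and the labels contain a mouse tissue name and a constant delivery that the organism, strain and design text do not share. Numbers in the labels, read as animal numbers, give 24 animals. Nothing else says that arrays of a group are separate animals, so p-values measure the spread between arrays.

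Heat shock proteins are chaperones that bind unfolded or aggregated protein. Under stress, the transcription factor HSF1 binds heat shock elements in their promoters and drives the inducible members, while the constitutive members serve folding in resting cells. Neurons are known for a weak heat shock response compared with glia. Hsp70 proteins work with J proteins (Dnaj genes), which deliver clients and stimulate the ATPase, and with Hsp110 proteins, which exchange the nucleotide.

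The promoter table, from RefSeq on the rat build GRCr8, held all 10 genes, each with 250 bases before and 50 after the annotated start. Both strands were searched for GAANNTTCNNGAA, a heat shock element of 3 units, and for its parts GAANNTTC and TTCNNGAA, which overlap it. The element of 3 units occurred in 4 of the 10 promoters and in 0.798% of 33469 promoters. GAANNTTC occurred in 7 of 10 (8.59% of all), and TTCNNGAA in 5 of 10 (8.77% of all). The stretches below show all matches of these letters in the 7 measured genes that have one, with the matching bases in capitals.
Hsph1: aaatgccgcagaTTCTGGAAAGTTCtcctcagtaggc
Hsph1, further from the start: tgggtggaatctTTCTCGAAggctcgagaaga
Hspd1: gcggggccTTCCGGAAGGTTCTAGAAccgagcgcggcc
Dnaja1: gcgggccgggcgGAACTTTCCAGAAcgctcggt
Dnaja1, further from the start: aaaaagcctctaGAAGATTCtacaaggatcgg
Dnajb1: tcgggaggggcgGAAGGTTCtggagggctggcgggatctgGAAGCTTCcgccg
Hspb1: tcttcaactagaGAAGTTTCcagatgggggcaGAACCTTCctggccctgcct
Bag3: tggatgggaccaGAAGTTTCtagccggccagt
Hspa4l: gacttggtatagTTCCTGAAatgt

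These lie at chr12:10427320-10427356 and chr12:10427251-10427282 (Hsph1, + strand), chr9:64084250-64084287 (Hspd1, - strand), chr5:60638401-60638433 (Dnaja1, + strand, with the match past the annotated start), chr5:60638211-60638242 (Dnaja1, before it) and chr19:41431112-41431164 (Dnajb1, - strand). The others lie at chr12:26432391-26432442 (Hspb1, - strand), chr1:192533316-192533347 (Bag3, + strand) and chr2:125668372-125668395 (Hspa4l, + strand, past the annotated start). Of the measured genes, Hsph1, Hspd1 and Dnaja1 carry the element of 3 units, Hspa1a and Hsp90ab1 had no match of any of these letters in the window, and a match is a description of the sequence alone.

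All values are log2 intensities, and differences are given with the SE of the limma fit. Levels of different probe sets are not comparable as amounts, but their place in the intensity range bears on precision. Hsp90ab1, Hsph1, Hspd1 and Dnaja1 were above the 98th percentile of all probe sets, Hspa4l was at the 92.7th and Dnajb1 at the 89.2nd. Bag3 (54.5th), Hspa1a (46.2nd) and Hspb1 (45.5th) were in the middle. Their within-group SD was also larger, at 0.21, 0.23 and 0.35, against 0.06 for Hspd1 and 0.07 for Hsp90ab1. These places are over all 60 arrays. In the chow vehicle cortex Hspa1a averaged 5.88 (5.62 to 6.10), under the level of 6 used below to mark dim probe sets. The Hspa1a probe set may also detect Hspa1b, a nearly identical copy, and a probe set annotated to both was left out.

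Median intensities per array ranged from 93.5 to 101. Neuron markers of the hippocampus, cortex and striatum were each highest in the labeled region. The mean of 10 choroid plexus genes, a tissue that can be taken up in dissection, ranged from 5.90 to 9.13 over the arrays, with 13 arrays high in it (7 of hippocampus, 1 of cortex and 5 of striatum). In bulk tissue, fewer cells of a type and less RNA per cell cannot be told apart.

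**Figure D1:**
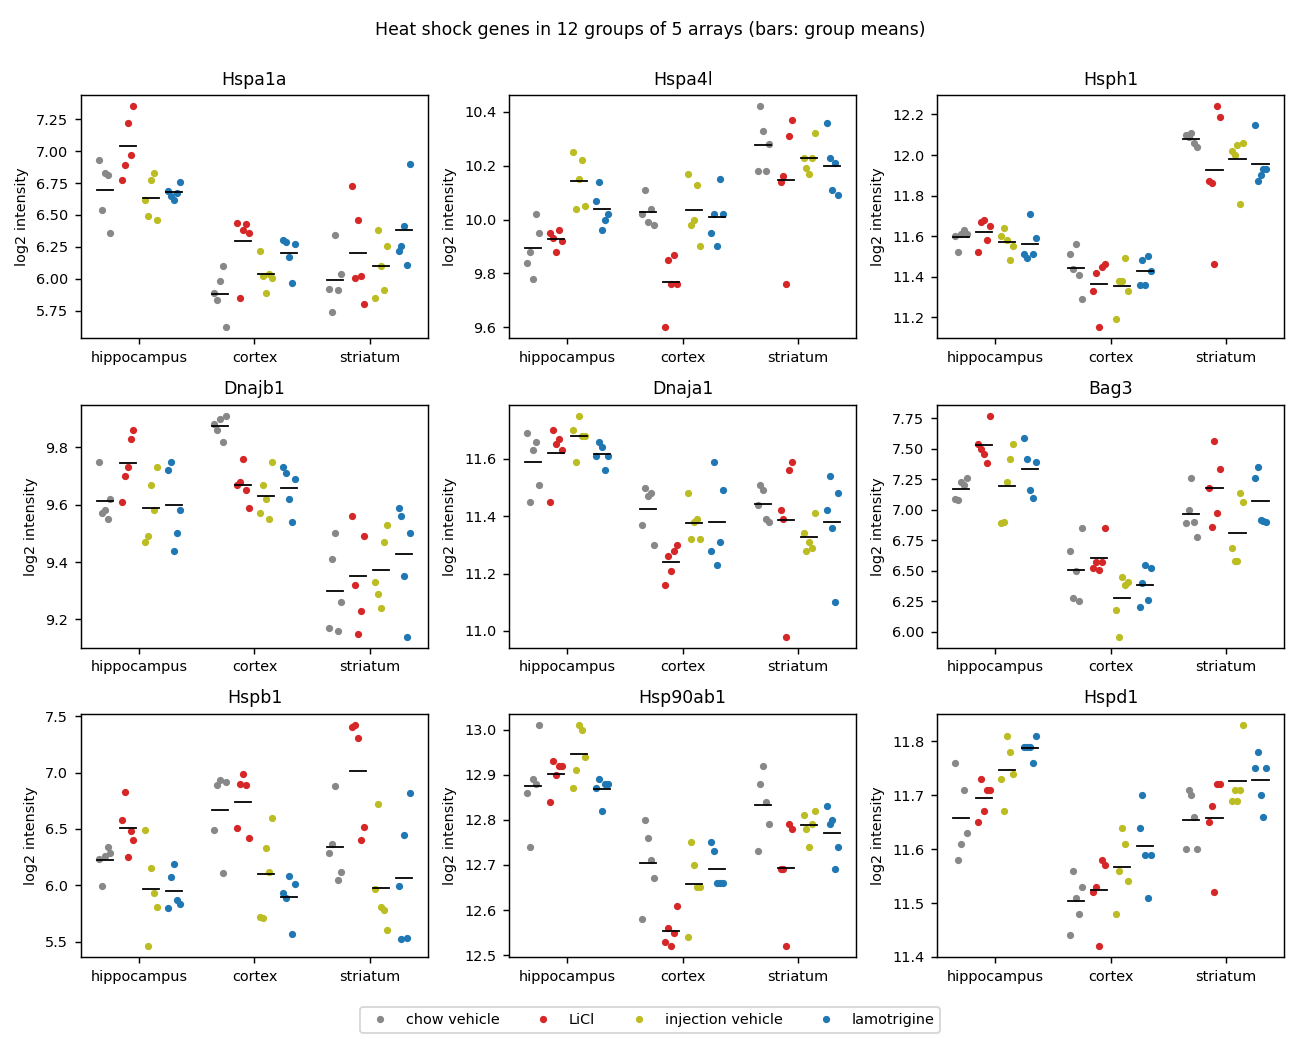
Log2 intensity of 9 heat shock genes on each of the 60 arrays, by region and treatment (1 point per array, bars at the mean of 5). Hspa1a and Bag3 are highest in the hippocampus, Hsph1 is highest in the striatum, and the LiCl cortex arrays lie below the chow vehicle arrays for Hspa4l and Dnajb1.

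The first comparison asked which heat shock genes differed in the hippocampus after LiCl. None of the 13 probe sets passed the test at an adjusted p under 0.05, where 0.235% of all probe sets did. By limma 2 of them, Bag3 and Hspa1a, had an unadjusted p under 0.05, as had 4827 of all 31042 probe sets. All 9 genes had differences above 0, with a median of 0.03 and a range of 0.03 to 0.36, while 50.2% of all probe sets lay above 0. Of the 13 probe sets 12 lay above 0, the exception being the second of Dnaja1 (-0.03). The signs of the small values were not stable: with the interquartile range of each array in the fit as a covariate, Hspa4l (-0.055), Hsp90ab1 (-0.085) and Hspd1 (-0.0051) lay below 0, as did Dnaja1 (-0.032) without arrays high in choroid plexus markers.

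Bag3, a cochaperone that links Hsp70 to autophagy, had the largest of these differences. Its LiCl arrays were at 7.54, 7.50, 7.46, 7.38 and 7.77, and its chow vehicle arrays at 7.09, 7.08, 7.23, 7.20 and 7.26. Every LiCl array was above every vehicle array, a separation found for 3.87% of all probe sets and for no other member. The difference was 0.36 ± 0.12 (adjusted p = 0.156, limma, n = 5 per group) and did not pass.

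Hspa1a, the inducible Hsp70, was at 6.77, 6.89, 7.22, 6.97 and 7.35 with LiCl and at 6.93, 6.54, 6.83, 6.81 and 6.36 in vehicle. The ranges overlapped, with 3 LiCl arrays above all vehicle arrays. The difference was 0.35 ± 0.11 (1.27-fold, adjusted p = 0.16, limma).

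Hspb1, the small heat shock protein Hsp27, differed by 0.28 ± 0.15 and the J protein Dnajb1, which serves the inducible Hsp70, by 0.13 ± 0.07 (0.18 ± 0.09 for its second probe set). Their adjusted p by limma ranged from 0.341 to 0.363. The abundant genes Hspa4l, Hsph1, Hsp90ab1, Dnaja1 and Hspd1 each differed by 0.03, with an SE of 0.04 to 0.05. The second probe set of Hsph1 differed by 0.10 ± 0.05.

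In the cortex, where LiCl was compared with the same vehicle, 1 gene rose and 4 fell with the values as deposited. These calls depended on the scaling of the arrays, as given below. Of the 13 probe sets 6 were called, 1 higher and 5 lower, against 13.4% of all probe sets (5.22% higher, 8.2% lower). The median over the 9 genes was -0.08, with 4 above 0, and 49.8% of all probe sets lay above 0. The gene that rose was Hspa1a, and those that fell were Hspa4l, Dnajb1, Hsp90ab1 and Dnaja1. Those that fell stood at the 89.2nd percentile of intensity or higher, and Hspa1a at the 46.2nd. Bag3 and Hspb1, also mid-range, lay above 0 without a call, as did the bright Hspd1 (98.4th). The part of brightness in these directions was not tested.

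Hspa1a was at 6.44, 5.85, 6.38, 6.43 and 6.36 in the LiCl cortex and at 5.89, 5.83, 5.98, 6.10 and 5.62 in vehicle. LiCl replicate 2 stood within the vehicle range, and the other 4 arrays were above all vehicle arrays. Hspa1a rose by 0.41 ± 0.11 (1.33-fold, adjusted p = 0.021, limma, n = 5 per group). It was called in the cortex and not in the hippocampus, and the effect in the hippocampus minus that in the cortex was -0.07, with a 95% interval from -0.45 to 0.32.

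Hspa4l, a nucleotide exchange factor of the Hsp110 family, was at 9.60, 9.85, 9.76, 9.87 and 9.76 with LiCl and at 10.02, 10.11, 9.99, 10.04 and 9.98 in vehicle. The groups did not overlap, as was the case for 11.8% of all probe sets. Hspa4l fell by 0.26 ± 0.06 (adjusted p = 0.0106, limma).

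Dnajb1 was at 9.67, 9.68, 9.76, 9.65 and 9.59 with LiCl and at 9.88, 9.86, 9.90, 9.82 and 9.91 in vehicle, again without overlap. It fell by 0.20 ± 0.05 (adjusted p = 0.0132, limma), and its second probe set differed by -0.21 ± 0.07 (adjusted p = 0.0516). The probe sets differed in which cortex group stood apart. On the first, Dnajb1 averaged 9.87 in chow vehicle, 9.67 with LiCl, 9.63 in injection vehicle and 9.66 with lamotrigine, so that chow vehicle was the high group. On the second it averaged 8.92, 8.71, 8.93 and 8.98, so that LiCl was the low group.

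Hsp90ab1, the constitutive cytosolic Hsp90, was at 12.53, 12.56, 12.52, 12.55 and 12.61 with LiCl and at 12.58, 12.80, 12.76, 12.71 and 12.67 in vehicle. The LiCl arrays were below the vehicle mean in 5 of 5 cases and overlapped vehicle replicate 1. Hsp90ab1 fell by 0.15 ± 0.04 (adjusted p = 0.0272, limma), and its second probe set differed by -0.12 ± 0.09 (adjusted p = 0.383).

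Dnaja1, a J protein of the constitutive Hsp70, was at 11.16, 11.26, 11.21, 11.28 and 11.30 with LiCl and at 11.37, 11.50, 11.47, 11.48 and 11.30 in vehicle. Only the highest LiCl and the lowest vehicle array met. It fell by 0.18 ± 0.06 (adjusted p = 0.0456, limma), and its second probe set differed by -0.08 ± 0.05 (adjusted p = 0.273).

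Hsph1, the Hsp110 that acts with the inducible Hsp70, gave unequal probe sets. The brighter differed by -0.08 ± 0.06 (adjusted p = 0.393, limma), and the dimmer fell by 0.32 ± 0.07 (adjusted p = 0.0106). On the dimmer the LiCl arrays were at 9.60, 9.73, 9.51, 9.80 and 9.75 and the vehicle arrays at 9.97, 10.11, 10.04, 10.07 and 9.77, and 1 LiCl array reached into the vehicle range. Bag3 (0.09 ± 0.12), Hspb1 (0.08 ± 0.17) and Hspd1 (0.02 ± 0.04) had adjusted p between 0.617 and 0.823.

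**Figure D2:**
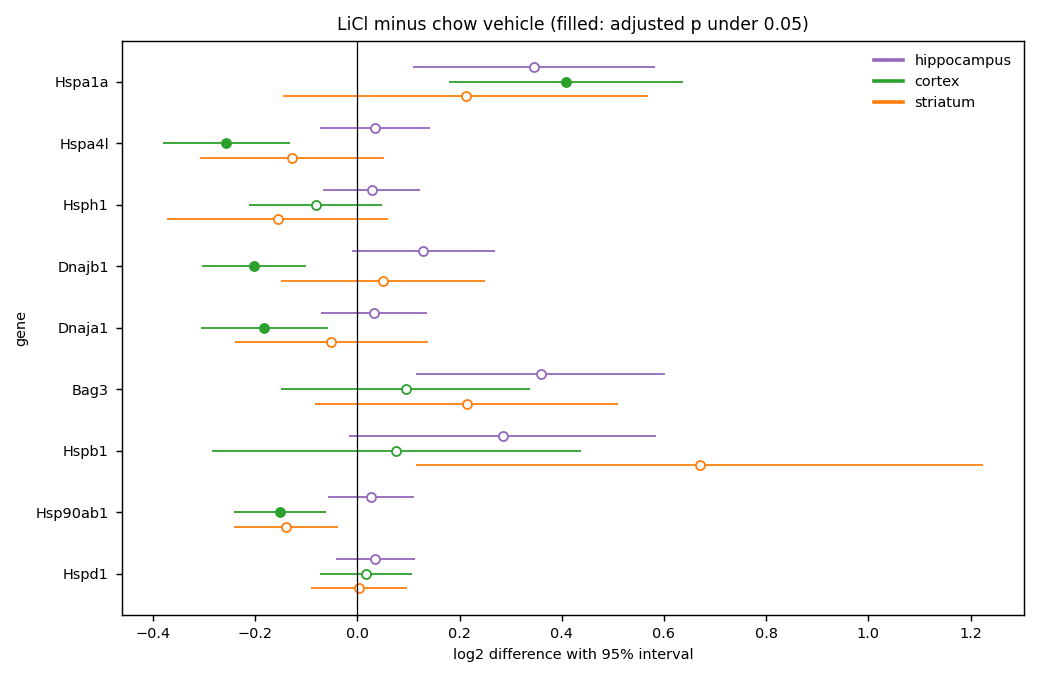
Log2 difference between LiCl and chow vehicle for each gene in the 3 regions, with 95% intervals (filled points: adjusted p under 0.05; n = 5 arrays per group). Filled points occur in the cortex alone, with Hspa1a at 0.41 and Hspa4l, Dnajb1, Dnaja1 and Hsp90ab1 between -0.26 and -0.15.

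The cortex calls depended on the scaling of the arrays. The interquartile range of log2 values was 3.29 to 3.44 on the LiCl arrays and 3.56 to 3.61 on those of chow vehicle. With quantile normalization, which makes the distributions equal, 0 of the 13 probe sets were called by limma (1354 of all probe sets, against 4164 before). Hspa1a then differed by 0.37 (adjusted p = 0.0582) and Hsp90ab1 by -0.14 (adjusted p = 0.0722), and Hspa4l by -0.16, Dnaja1 by -0.13 and Dnajb1 by -0.11, with adjusted p from 0.132 to 0.225. With the interquartile range as a covariate no probe set of the array was called, 3083 had an unadjusted p under 0.05, and Hspa1a differed by 0.16 and Dnajb1 by -0.27. The interquartile ranges of the groups did not overlap, so that this covariate and the treatment can hardly be told apart. All 9 genes kept their sign in both settings. Choroid plexus markers had a mean of 6.36 with LiCl and 6.02 in the vehicle cortex (9 of 10 higher, range of arrays 6.17 to 6.54 against 5.90 to 6.17), and meningeal markers of 6.96 and 6.55 (10 of 10 higher). Cortical neuron markers had a mean of 8.09 with LiCl (8.07 to 8.11) and 8.29 in vehicle (8.23 to 8.37), without overlap, with 6 of 9 lower and 3 called. The part of these markers in the result was not tested.

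**Figure D3:**
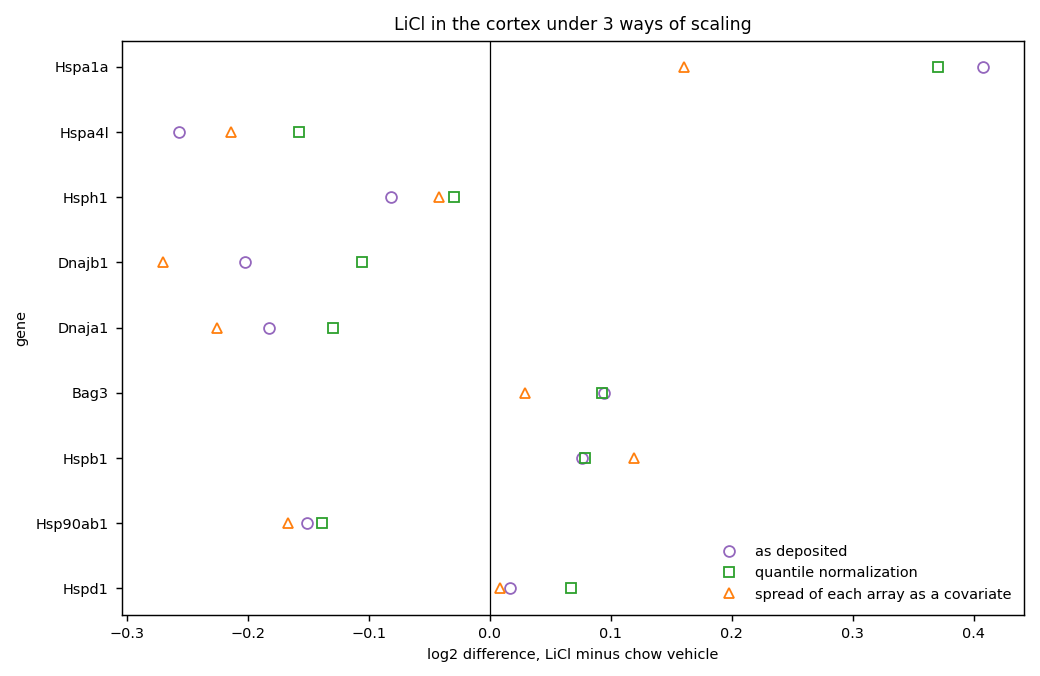
Log2 difference between LiCl and chow vehicle in the cortex for the values as deposited, after quantile normalization and with the interquartile range as a covariate (n = 5 arrays per group). Every gene stays on its side of 0, Hspa1a moves from 0.41 to 0.37 and 0.16, and Dnajb1 from -0.20 to -0.11 and -0.27.

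Single arrays also decided some cortex calls. Without LiCl replicate 1 the count fell to 3 of 13, and Hspa1a differed by 0.37 (adjusted p = 0.0557, limma). Without LiCl replicate 5 it differed by 0.39 (adjusted p = 0.0514). Hspa4l and Dnajb1 kept their calls whichever of the 10 arrays was left out, with a highest adjusted p of 0.0349 and 0.04. Hsp90ab1 lost its call without 5 of the arrays in turn (LiCl replicates 1 and 3, vehicle replicates 2, 3 and 4; adjusted p up to 0.0767), and Dnaja1 without 8 of them, all but vehicle replicates 1 and 5 (up to 0.11).

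The difference between the LiCl effects in hippocampus and cortex was then tested directly in 1 fit of all arrays. Of the 13 probe sets 5 were called, all with a higher value in the hippocampus, against 19.4% of all probe sets (9.38% higher). Dnajb1 differed by 0.33 ± 0.10 (adjusted p = 0.013, limma) and by 0.37 ± 0.12 for its second probe set (adjusted p = 0.0254). Hspa4l differed by 0.29 ± 0.09 (adjusted p = 0.021) and Hsp90ab1 by 0.18 ± 0.06 (adjusted p = 0.0207). The dimmer Hsph1 probe set differed by 0.41 ± 0.13 (adjusted p = 0.0201). Values for the genes that did not pass were 0.26 ± 0.17 for Bag3, 0.24 ± 0.29 for Hspb1, 0.21 ± 0.09 for Dnaja1, 0.11 ± 0.10 for the brighter Hsph1 probe set and 0.02 ± 0.05 for Hspd1. With quantile normalization 1 of the 5 calls was left, Hsp90ab1 (adjusted p = 0.0475), and without the arrays high in choroid plexus markers also 1, Hsp90ab1 (adjusted p = 0.0371). With the interquartile range as a covariate none was called. The mean interquartile range was 3.59 with LiCl and 3.48 in chow vehicle in the hippocampus, and 3.37 and 3.58 in the cortex. The spread of the arrays thus differed in opposite directions in these regions, and its part in the calls was not tested.

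Other chaperone genes were taken from 7 lists of factors, partners and related families, with 61 of 65 genes measured. In the LiCl hippocampus 0 of these were called and 41 were above 0 (median 0.05). In the LiCl cortex 1 rose and 11 fell, where 13.4% of all probe sets were called and 8.2% were lower, and 49 were below 0 (median -0.13). As for the members, these calls are those of the deposited scaling, and the count over all probe sets went from 4164 to 1354 with quantile normalization and to 0 with the interquartile range as a covariate. The gene that rose was Hsf4 (0.35 ± 0.09, adjusted p = 0.0196, limma), a factor related to HSF1. Hsf1 itself differed by 0.16 ± 0.07 in the hippocampus and by -0.15 ± 0.09 in the cortex (adjusted p = 0.293 and 0.255, limma). The difference between these effects passed (0.31 ± 0.11, adjusted p = 0.0306, limma), as did 19.4% of all probe sets. Of the 61 genes this difference is given for Hsf1 alone, at the deposited scaling only.

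The largest falls in the cortex were those of Cct2 (-0.31 ± 0.07), a subunit of the CCT chaperonin that folds actin and tubulin, and of Fkbp5 (-0.29 ± 0.10), an Hsp90 cochaperone that responds to glucocorticoids. Ppp5c (-0.26 ± 0.08), a phosphatase bound to Hsp90, and Ahsa1 (-0.25 ± 0.05), which stimulates the Hsp90 ATPase, also fell. Hspa4 (-0.24 ± 0.07), the closest relative of Hspa4l, Cct8 (-0.23 ± 0.08), the mitochondrial Hsp70 Hspa9 (-0.23 ± 0.05), Bag6 (-0.20 ± 0.06), Dnajc7 (-0.18 ± 0.05), Ppid (-0.18 ± 0.04) and Sugt1 (-0.17 ± 0.05) were the others. Their adjusted p by limma lay between 0.00542 and 0.046.

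By list, the falls in the cortex were 4 of 8 Hsp90 cochaperones, 2 of 8 CCT subunits, 2 of 8 other Hsp70 and Hsp110 genes, 2 of 17 J proteins and Hsp70 cochaperones, and 1 of 10 other inducible heat shock genes. All 17 genes of the J protein list and all 8 CCT subunits lay below 0, where 50.2% of all probe sets did. The signs of the 61 genes in the cortex are also those of the deposited scaling, and were not counted under other scaling. None of 6 small heat shock proteins was called, and 5 of them were above 0. In the striatum 0 of the 61 genes were called with LiCl, with a median of -0.01.

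In the striatum LiCl gave no call among the 13 probe sets, as for all probe sets (0%, with 3828 at an unadjusted p under 0.05 by limma, 3 of them members). The largest value was that of Hspb1, at 7.40, 7.42, 7.31, 6.40 and 6.52 with LiCl and at 6.29, 6.37, 6.88, 6.05 and 6.12 in vehicle. Of the LiCl arrays 3 were above all vehicle arrays, and the difference was 0.67 ± 0.27 (adjusted p = 0.333, limma). LiCl replicates 1 and 2 were also at 9.13 and 8.90 in choroid plexus markers, against 6.62 to 6.94 in the other LiCl and 6.22 to 6.89 in the vehicle arrays. Without arrays high in these markers the difference was 0.40 (adjusted p = 0.712).

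Hsp90ab1 differed by -0.14 ± 0.05 and by 0.13 ± 0.05 for its second probe set, so that its direction in the striatum was not settled. LiCl replicate 3 was the lowest LiCl array in the striatum for 6 of the 9 genes. It stood at 11.46 for Hsph1 (other LiCl arrays 11.86 to 12.24), at 9.76 for Hspa4l (10.14 to 10.37) and at 10.98 for Dnaja1 (11.39 to 11.59). Without it the LiCl difference went from -0.16 to -0.04 for Hsph1, from -0.13 to -0.03 for Hspa4l and from -0.05 to 0.05 for Dnaja1. This array also had the lowest striatal neuron markers of the striatum, at 11.47 against 11.88 to 12.10 in the other LiCl arrays. Its endothelial (8.67), microglial (8.54) and red blood cell markers (10.14) were the highest of the striatum. The part of its tissue content in these levels was not tested.

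Lamotrigine was compared with its own injection vehicle. No member was called in the hippocampus, cortex or striatum, where 0.00322%, 0% and 0% of all probe sets were. By limma 3063, 1799 and 1193 of all probe sets had an unadjusted p under 0.05, and 1, 0 and 0 of the members had. Gene medians were -0.01, 0.03 and 0.06, with ranges of -0.10 to 0.14, -0.20 to 0.16 and -0.03 to 0.28. Hspa1a was at 6.69, 6.65, 6.62, 6.67 and 6.76 in the lamotrigine hippocampus and at 6.62, 6.49, 6.77, 6.83 and 6.46 in its vehicle. The lamotrigine values lay within the vehicle range, with a difference of 0.04 ± 0.11 and a 95% interval from -0.19 to 0.28. In the striatum, Hspa1a (0.28 ± 0.17) and Bag3 (0.26 ± 0.14) had the largest differences, with adjusted p = 0.997 by limma. Lamotrigine replicates 3 and 5 and vehicle replicate 2 there were high in choroid plexus markers (8.93, 9.04 and 9.02). Over the 20 striatum arrays, deviations in these markers had r = 0.61 with Hspa1a and -0.47 with Bag3, neither passing after adjustment. The part of these markers in the lamotrigine differences was not tested.

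The vehicles were compared with each other as well. This comparison sets injection against chow feeding and shares the chow vehicle arrays with the LiCl comparison. Batches are not given in the sources used here, and cannot be told apart from the arm. In the hippocampus 2 of 13 probe sets were called, against 18.5% of all. Hspa4l was at 10.25, 10.04, 10.15, 10.22 and 10.05 in injection vehicle and at 9.84, 9.88, 9.78, 10.02 and 9.95 in chow vehicle, without overlap (12.6% of all probe sets). It was higher by 0.25 ± 0.05 (adjusted p = 0.00172, limma), and the dimmer Hsph1 probe set by 0.22 ± 0.05 (adjusted p = 0.00554).

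In the cortex 2 of 13 were called, against 18.9% of all. Dnajb1 fell by 0.24 ± 0.05 with injection (adjusted p = 0.00133, limma), and the groups did not overlap (13.4% of all probe sets). Its second probe set differed by 0.01 ± 0.07. Hspb1 fell by 0.57 ± 0.17 (1.49-fold lower, adjusted p = 0.0232), with injection vehicle at 5.72, 5.71, 6.33, 6.12 and 6.60 and chow vehicle at 6.49, 6.89, 6.93, 6.11 and 6.92. In the striatum 1 probe set was called, the second of Hsp90ab1 (0.24 ± 0.05, adjusted p = 0.00287, limma), against 6.83% of all and without overlap (9.51% of all probe sets), and the first differed by -0.05 ± 0.05.

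Hspb1 means were lower in the injection arm in each region, at 5.89 to 6.09 in its 6 groups against 6.22 to 7.01 in the 6 groups of the chow arm. Beyond the cortex the vehicle difference did not pass, at -0.25 ± 0.15 in the hippocampus and -0.37 ± 0.27 in the striatum (adjusted p = 0.227 and 0.491, limma).

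Hspb1 also varied most within groups, and its levels were set beside those of choroid plexus, meningeal and endothelial markers. These relations, 81 over 9 genes, 3 lists and 3 regions, were chosen after values were seen and use deviations from the group mean. In the striatum the arrays fell into 5 with choroid plexus markers from 8.90 to 9.13 and 15 from 6.22 to 7.03, so no pooled value is given. The 5 arrays held the highest Hspb1 level or levels of each of their groups. Within the 15 others r was 0.23 (permutation p = 0.411, adjusted p = 0.679) and rho 0.33 (permutation p = 0.259). In the cortex r was 0.64 (permutation p = 0.00305, adjusted p = 0.0494) and rho 0.71 (permutation p = 0.0005, adjusted p = 0.0135) over 20 arrays, and r was 0.55 without the 2 arrays farthest from the median of the markers. Without the 1 cortex array high in these markers the relation did not pass, with r = 0.56 (permutation p = 0.0278, adjusted p = 0.287) and rho = 0.58 (permutation p = 0.0168, adjusted p = 0.315). In the hippocampus it did not pass, with r = 0.67 (permutation p = 0.014, adjusted p = 0.0931) and rho = 0.61 (permutation p = 0.0235, adjusted p = 0.1). Without the 7 hippocampus arrays high in these markers r was 0.34 (permutation p = 0.33, adjusted p = 0.635).

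**Figure D4:**
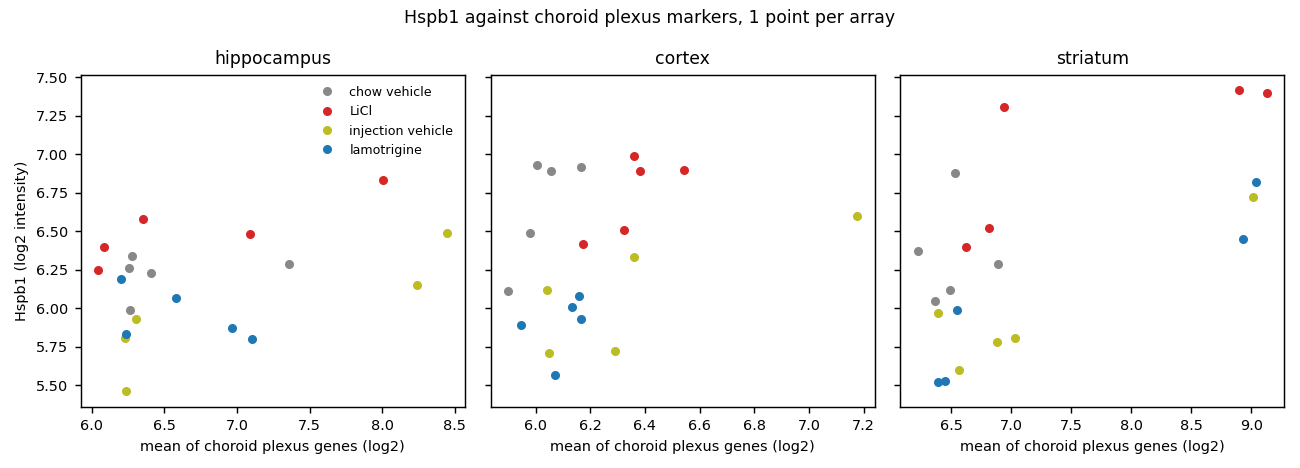
Hspb1 log2 intensity against the mean log2 level of 10 choroid plexus genes, 1 point per array, by region and treatment. In the striatum 5 arrays stand apart between 8.90 and 9.13 on the horizontal axis, with the LiCl ones at 7.40 and 7.42.

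Dnajb1 and endothelial markers were related inversely in the hippocampus and not detectably in the cortex, where r was 0.04 (permutation p = 0.879, adjusted p = 0.962) and rho 0.06 (permutation p = 0.813). In the hippocampus r was -0.86 (permutation p = 4e-05, adjusted p = 0.00324) and rho -0.89 (permutation p = 2e-05, adjusted p = 0.00162) over 20 arrays, and r was -0.81 without the 2 arrays farthest from the median. Bag3 also had a negative r there (-0.68, adjusted permutation p = 0.103), while Hsph1 (0.37) and Hspb1 (0.09) lay above 0. The endothelial markers spread most in the injection arm, from 7.39 to 7.92 in injection vehicle and 7.43 to 7.99 with lamotrigine. They ran from 7.81 to 8.04 with LiCl and from 7.60 to 7.91 in chow vehicle. The Dnajb1 relation was not tested within an arm. In the striatum r was -0.66 (permutation p = 0.0017, adjusted p = 0.0344) and rho -0.62 (permutation p = 0.00473, adjusted p = 0.0766), and r was -0.70 without the 2 farthest. Without arrays high in choroid plexus markers the striatum relation did not pass (r = -0.70, permutation p = 0.0208, adjusted p = 0.287). The hippocampus relation then had r = -0.89 (permutation p = 0.00036, adjusted p = 0.0292) and rho -0.95 (permutation p = 0.00077, adjusted p = 0.0624). Of the 81 relations 5 passed by Pearson's r and 4 of these by Spearman's rho too. Both counts include Hspb1 with choroid plexus and with meningeal markers in the striatum, which pool the arrays that stand apart. Within the 15 striatum arrays not high in choroid plexus markers neither passed. There r was 0.23 (permutation p = 0.411, adjusted p = 0.679) for choroid plexus and 0.29 (permutation p = 0.345, adjusted p = 0.635) for meningeal markers. Endothelial markers averaged 7.89 with LiCl against 7.83 with plain chow in the hippocampus, and 8.32 against 8.19 in the cortex. Their part in the Dnajb1 differences was not tested.

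Whether Hspa1a varied with the other members from array to array was asked within each region, with 24 relations. None passed after adjustment. The closest was Hspb1 in the striatum, with r = 0.69 (permutation p = 0.00307, adjusted p = 0.0737) and rho = 0.54 (permutation p = 0.0312, adjusted p = 0.4), and r = 0.60 without the 2 arrays farthest from the Hspa1a median. These 20 arrays include the 5 high in choroid plexus markers, and the relation was not tested without them. Hspa1a and choroid plexus markers had r = 0.61 over the 20 striatum arrays and 0.26 within the 15 others. Over all 24 the median r was -0.03, 11 were above 0, and the range was -0.48 to 0.69.

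Over all 60 arrays the 5 genes whose deviations were most like those of Hspa1a were Fgf1 (r = 0.60), Ocln (0.59), Plbd1 (0.56), Bst2 (0.55) and Otc (0.53), none of them a chaperone. Fgf1 encodes a growth factor, Ocln the tight junction protein occludin and Bst2 tetherin, an interferon-induced membrane protein. For Fgf1 the likeness lay in the striatum (0.85) and not in the hippocampus (0.03) or cortex (0.15), and Plbd1 was even over the regions (0.49, 0.50 and 0.64). The striatum values take in the 5 arrays high in choroid plexus markers. Among the members Hspb1 (0.32) and Dnajb1 (0.21) were closest to Hspa1a, and Bag3 was at 0.00.

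Levels were also followed between regions of the same animal, in 16 animals for hippocampus with each other region and in 20 for cortex with striatum. Of 27 relations 23 were above 0 (median r = 0.31) and none passed after adjustment. The highest was Dnajb1 between hippocampus and striatum, with r = 0.71 (permutation p = 0.00483, adjusted p = 0.13) and rho = 0.72 (permutation p = 0.00323, adjusted p = 0.0872), and r = 0.62 without the 2 farthest animals. The animal numbers of the chow arm are shifted in the hippocampus, and with the 10 animals of the injection arm alone 0 of 27 passed as well.

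In vehicle rats the regions differed clearly for most members. Between hippocampus and cortex 10 of 13 probe sets were called (8 higher, 2 lower), against 42.4% of all probe sets. Bag3 was higher by 0.79 ± 0.09 (1.73-fold, adjusted p = 2.86e-11, limma) and Hspa1a by 0.70 ± 0.09 (1.63-fold, adjusted p = 9.83e-09), and for both every one of the 10 hippocampus arrays was above every cortex array (7.48% of all probe sets). Dnaja1 and the brighter probe set of Hsp90ab1 were each higher by 0.23, Hsph1 by 0.18 and Hspd1 by 0.17. The second probe set of Hsp90ab1 averaged 12.20 in chow and 12.11 in injection vehicle in the hippocampus, and 12.22 and 12.19 in the cortex. On that probe set the hippocampus was thus not the higher region. Dnajb1 was lower by 0.15 ± 0.05. Its means were 9.62 against 9.87 in chow vehicle and 9.59 against 9.63 in injection vehicle, so that the difference lay mostly in chow vehicle. On its second probe set they were 8.61 against 8.92 and 8.80 against 8.93.

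Between striatum and cortex 9 of 13 were called, against 55.9% of all. Hsph1 was higher by 0.63 ± 0.05 (1.55-fold) and by 0.71 ± 0.06 for its second probe set, and Dnajb1 fell by 0.42 ± 0.05, each without overlap of the 10 and 10 arrays (15.5% of all probe sets). Bag3 (0.49 ± 0.08), Hspa4l (0.22 ± 0.05), Hspd1 (0.16 ± 0.02) and the brighter probe set of Hsp90ab1 (0.13 ± 0.03) were also higher in the striatum. The second probe set of Hsp90ab1 averaged 12.01 in chow and 12.25 in injection vehicle there, against 12.22 and 12.19 in the cortex. Hspa1a differed by 0.08 ± 0.09, with a 95% interval from -0.10 to 0.27.

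Between striatum and hippocampus 10 of 13 were called, against 50.9% of all. Hspa1a was lower in the striatum (log2 difference -0.62 ± 0.09), with adjusted p = 1.19e-07 by limma. Bag3 (-0.29 ± 0.09), Dnajb1 (-0.27 ± 0.05), Dnaja1 (-0.25 ± 0.05) and the brighter probe set of Hsp90ab1 (-0.10 ± 0.03) were lower as well. Hsph1 (0.45 ± 0.05) and Hspa4l (0.24 ± 0.05) were higher. Hsph1 did not overlap on either probe set (13.3% of all probe sets).

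The order of the regions was not the same for all members. Hspa1a was at 6.66 ± 0.19 in hippocampus, 6.05 ± 0.22 in striatum and 5.96 ± 0.16 in cortex (SD, n = 10), the last pair not distinguished. Bag3 followed hippocampus, striatum and cortex (7.18 ± 0.21, 6.89 ± 0.23 and 6.39 ± 0.25), with all steps past the test. The brighter probe set of Hsp90ab1 and Hspd1 were also lowest in the cortex, with hippocampus and striatum not distinguished for Hspd1. Hsph1 followed striatum, hippocampus and cortex (12.03 ± 0.10, 11.58 ± 0.05 and 11.40 ± 0.11), and Dnajb1 followed cortex, hippocampus and striatum (9.75 ± 0.14, 9.60 ± 0.09 and 9.34 ± 0.13). Hspb1 was not called between any regions (6.10 ± 0.30 in hippocampus, 6.38 ± 0.46 in cortex and 6.16 ± 0.41 in striatum).

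**Figure D5:**
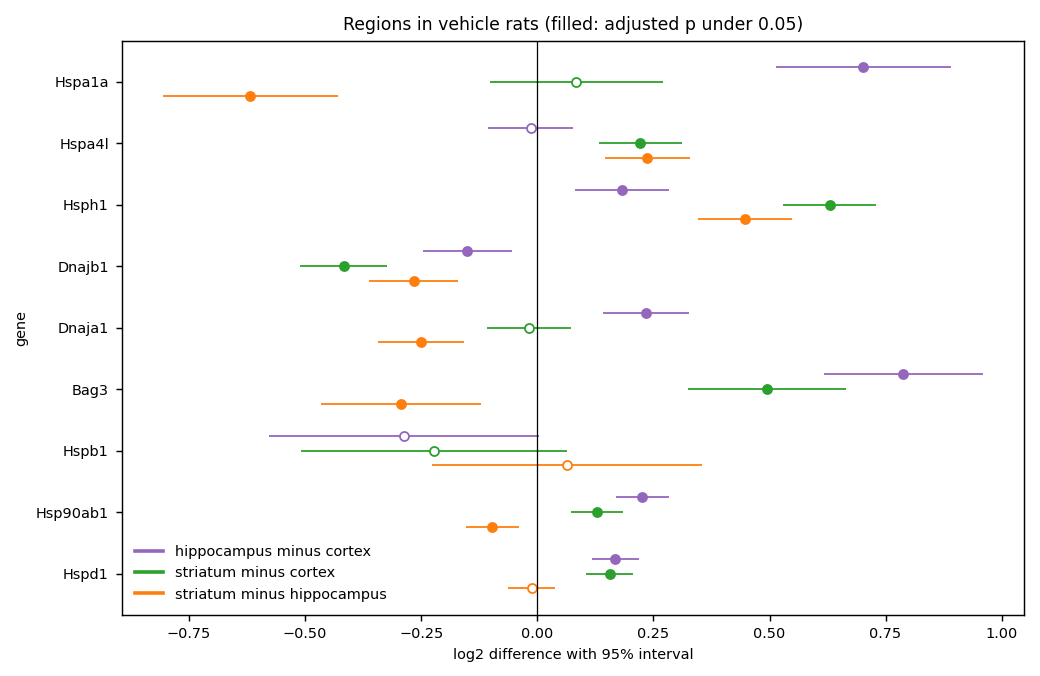
Log2 differences between regions in vehicle rats, with 95% intervals (filled points: adjusted p under 0.05; 10 arrays per region). Bag3 and Hspa1a lie at 0.79 and 0.70 for hippocampus minus cortex, Hsph1 at 0.63 for striatum minus cortex, and Dnajb1 at -0.42 for the same contrast.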

How the data were processed

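RNA from snap-frozen hippocampus, cortex and striatum was hybridized by the authors to Affymetrix arrays, 1 per sample. The deposited intensities are linear (6.93 to 28582) and, per the submitters' processing notes, came from RMA in R 2.7.2. No source used here says if RMA was run on all arrays at once. The paper supplied with the series describes another experiment and gave style only. Log2 was taken with no pseudocount. Of 31099 probe sets, 57 controls were left out and 31042 tested. No 2 arrays held identical values, and the number of arrays limits the precision.

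Symbols came from the platform annotation: 20826 probe sets carry 1 symbol, 436 several and 9780 none. Groups came from the labels. For each region, a limma model (version 3.58.1, R 4.3.3, data.table version 1.17.8) with 1 mean per group was fitted to 20 arrays, with an intensity trend in eBayes, two-sided, with p-values adjusted by Benjamini-Hochberg over all tested probe sets and a threshold of 0.05. Differences between regions used 1 fit of 60 arrays with the animal as a random block (correlation 0.133). Correlations used deviations from group means and 100000 permutations within groups, two-sided, in Python 3.11.15 (numpy 2.4.6, scipy 1.17.1), with adjusted values over each family. All members were named by their probe set of highest mean, other chaperone genes where called for LiCl in hippocampus or cortex, at most 10 per list by size, and the 5 genes most like Hspa1a. The members, lists and tests were chosen with earlier results of these data known. The fits and correlations were tested on simulated data. Alternatives were quantile normalization, median centering, covariates for the interquartile range of an array and for the 3' to 5' difference of Actb and Gapdh, no dim probe sets (mean under 6), no intensity trend, the groups compared alone, the replicate block, arrays high in choroid plexus markers left out, other probe sets, and each array left out in turn. Same-numbered replicates did not deviate together, so numbers were not used as pairs.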

Additional observations from a re-analysis of the deposited data

Results flagged for a closer look

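Among 108 sets of 5 arrays (9 genes, 12 groups), 7 held an array far from the other 4, where chance gives about 1 in 20. In the LiCl cortex these were Hspa1a in replicate 2, at 5.85 where the next array was at 6.36, and Bag3 in replicate 5, at 6.85 where the next was at 6.57. Dnaja1 was at 11.45 in replicate 1 of the LiCl hippocampus, where the next array was at 11.63. Hsph1 was at 11.52 in chow vehicle replicate 2 of the hippocampus, at 11.76 in injection vehicle replicate 4 of the striatum and at 12.15 in lamotrigine replicate 1 of the striatum. Hspd1 was at 11.83 in injection vehicle replicate 5 of the striatum.

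With the values as deposited, the LiCl effect differed between hippocampus and cortex by the test of the difference for Hspa4l (0.29), Hsp90ab1 (0.18), the dimmer probe set of Hsph1 (0.41) and both probe sets of Dnajb1 (0.33 and 0.37), all higher in the hippocampus. Of all probe sets 19.4% passed this test, 9.38% with a higher value. Hsp90ab1 alone was called with quantile normalization or without arrays high in choroid plexus markers. With the interquartile range as a covariate none was called.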

How the results depend on the processing

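Depth of signal over background limits Hspa1a, Hspb1 and Bag3, which lie mid-range over all 60 arrays. Of 13 probe sets, those called for LiCl in the cortex numbered 6, and 0 with quantile normalization and 0 with the interquartile range as a covariate (3 to 7 with 1 array left out). For the difference of LiCl effects between hippocampus and cortex the count was 5, and 1 with quantile normalization, 0 with the interquartile range as a covariate and 1 without arrays high in choroid plexus markers (3 to 6 with 1 array left out, 3 without hippocampus chow vehicle replicate 2). For injection against chow vehicle it was 2 in the hippocampus (0 with the interquartile range as a covariate, 2 to 4 with 1 array left out, 4 without injection vehicle replicate 2), 2 in the cortex (1 with the groups compared alone, 1 to 2 with 1 array left out, 1 without injection vehicle replicate 1 or 2 or chow vehicle replicate 2, 3 or 5) and 1 in the striatum (2 with the groups compared alone). The other counts stayed within 1.5 times their value in the alternatives run. Over all probe sets the LiCl hippocampus count of 73 was 27 with quantile normalization, 28 with the replicate block, 1 without arrays high in choroid plexus markers, 127 without the intensity trend, 0 with the interquartile range as a covariate and 5 to 256 with 1 array left out. The cortex count of 4164 was 1354 with quantile normalization, 0 with the interquartile range as a covariate and 2094 to 3974 with 1 array left out, and the count of 6034 for the difference of LiCl effects was 2460, 0 and, without dim probe sets, 3784. The cause was not tested. The replicate block left 5 members called for LiCl in the cortex, without Dnaja1 (adjusted p = 0.0525, limma), and moved no other count of members by over 1.5 times. Groups share these replicate numbers in the labels, and nothing else ties same-numbered arrays together.

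Some values changed sign, none of them called, and the cause was not tested. In the LiCl hippocampus, with the interquartile range as a covariate, Hspa4l was -0.055, Hsp90ab1 -0.085 and Hspd1 -0.0051, and Dnaja1 was -0.032 without arrays high in choroid plexus markers and -0.025 for its other probe set. In the LiCl striatum, Hspd1 was -0.018 with median centering, -0.033 with the interquartile range as a covariate and -0.0019 without arrays high in choroid plexus markers, Dnajb1 was -0.080, -0.0089 and -0.026 with the interquartile range as a covariate, without those arrays and for its other probe set, and Hsp90ab1 was 0.13 for its other probe set. For the difference of LiCl effects, Hspd1 was -0.047 with quantile normalization, -0.0024 with median centering, -0.046 with the interquartile range as a covariate and -0.00061 without arrays high in choroid plexus markers, and Hspb1 was -0.27 with the interquartile range as a covariate. With 1 array left out, values ranged from -0.0022 to 0.074 for Dnaja1 and -0.0076 to 0.059 for Hsp90ab1 in the LiCl hippocampus, and from -0.062 to 0.16 for Hspb1 in the LiCl cortex. They ranged from -0.10 to 0.051 for Dnaja1, -0.0017 to 0.10 for Dnajb1 and -0.013 to 0.038 for Hspd1 in the LiCl striatum, and from -0.16 to 0.018 for Hspa1a and -0.0038 to 0.044 for Hspd1 in the difference of LiCl effects.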
